A study of Homo sapiens with 6 samples.

Results

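The IFIT and IFITM families are among the antiviral genes that interferon (IFN) switches on. The 7 members described here, IFIT1, IFIT2, IFIT3, IFIT5, IFITM1, IFITM2 and IFITM3, were taken by symbol from the 37887 symbols of a count table of BT-549 cells. BT-549 is an established triple-negative breast cancer line of mesenchymal character. RNA-seq had been performed on 3 control samples, given 0.1% DMSO, and 3 IRF1shRNA samples, given 500 ng/ml doxycycline to induce a short hairpin RNA (shRNA) against the transcription factor IRF1. The sample titles speak of a control shRNA, whereas the series describes a single line carrying the tet-IRF1 shRNA in both arms. Only the silenced samples received doxycycline, and 1 hairpin against IRF1 was used. Effects of the drug, of the hairpin and of IRF1 loss therefore cannot be told apart. If the titles hold, the controls carried another shRNA, and a difference between lines cannot be told apart from these effects either. The samples came from cultures in triplicate. Whether these were grown separately is not stated, so the p-values measure the spread between these samples, which may be technical.

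IFIT proteins are built of tetratricopeptide repeats and act in the cytosol. IFIT1 binds messenger RNA whose 5′ cap lacks the methyl marks of host transcripts, IFIT3 stabilises IFIT1, IFIT2 promotes apoptosis and binds RNA as well, and IFIT5 binds RNA with an uncapped 5′ end. IFITM proteins are small membrane proteins with a CD225 domain that stop enveloped viruses from fusing with the cell, IFITM1 mostly at the plasma membrane and IFITM2 and IFITM3 mostly in endosomes. Both families are induced through IFN-stimulated response elements (ISREs), the sites bound by the ISGF3 complex and by IRF factors such as IRF1.

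Promoters were searched on both strands for the core of the ISRE, taken as a pair of GAAA blocks with any 2 bases between them, because IRF factors recognise repeats of GAAA. RefSeq promoter windows on GRCh38.p14, from 250 bases before to 50 bases after a start site, were at hand for IFIT1, IFIT3, IFIT5, IFITM1 and IFITM3, with 2 start sites for IFIT3. IFIT2 and IFITM2 were not matched. The bases from 160 before to 50 after each start are given here on the strand of the gene, with every ISRE core on either strand in capitals. Where the core lies on the opposite strand, its blocks read TTTC. The windows are chr10:89392463-89392672 (IFIT1), chr10:89327837-89328046 and chr10:89332369-89332578 (IFIT3), chr10:89414408-89414617 (IFIT5), chr11:313880-314089 (IFITM1) and chr11:320811-321020 (IFITM3), the last on the minus strand and the others on the plus strand.
IFIT1: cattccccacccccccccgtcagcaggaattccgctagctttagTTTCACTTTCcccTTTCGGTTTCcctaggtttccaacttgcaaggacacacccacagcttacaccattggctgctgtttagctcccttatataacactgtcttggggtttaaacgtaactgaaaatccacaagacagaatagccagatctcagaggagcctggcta
IFIT3, upstream start: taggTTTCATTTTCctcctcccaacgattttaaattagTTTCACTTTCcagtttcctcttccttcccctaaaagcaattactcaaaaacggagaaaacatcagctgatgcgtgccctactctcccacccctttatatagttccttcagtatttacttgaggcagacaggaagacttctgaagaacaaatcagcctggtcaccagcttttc
IFIT3, downstream start: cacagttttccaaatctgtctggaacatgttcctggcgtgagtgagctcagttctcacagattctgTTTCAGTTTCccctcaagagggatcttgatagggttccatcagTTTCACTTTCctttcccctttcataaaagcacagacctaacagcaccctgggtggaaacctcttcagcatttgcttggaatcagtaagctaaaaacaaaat
IFIT5: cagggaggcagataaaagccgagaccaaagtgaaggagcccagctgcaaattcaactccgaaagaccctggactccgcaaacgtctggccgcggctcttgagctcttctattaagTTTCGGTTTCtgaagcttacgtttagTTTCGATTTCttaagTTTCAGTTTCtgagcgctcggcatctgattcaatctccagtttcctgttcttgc
IFITM1: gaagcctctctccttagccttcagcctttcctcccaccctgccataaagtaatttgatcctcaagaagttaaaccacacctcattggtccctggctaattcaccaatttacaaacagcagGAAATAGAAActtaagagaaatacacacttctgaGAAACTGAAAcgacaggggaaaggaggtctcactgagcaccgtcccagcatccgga
IFITM3: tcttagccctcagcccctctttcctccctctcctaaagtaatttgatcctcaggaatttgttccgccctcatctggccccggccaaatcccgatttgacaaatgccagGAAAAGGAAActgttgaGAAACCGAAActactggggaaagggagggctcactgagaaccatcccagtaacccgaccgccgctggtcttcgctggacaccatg

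Each of the 6 windows held at least 2 ISRE cores, and IFIT5 held 3. Of all 35116 RefSeq promoters of this length, 3.57% held 1 or more, and the share with at least 2 was not counted. All matches of the IFIT promoters lay on the strand opposite to the gene, and those of IFITM1 and IFITM3 lay on the strand of the gene. In IFIT1 the pair of cores began 116 and 103 bases before the start. In IFITM1 and IFIT5 the nearest core ran across the start itself. IFITM1 was the only one of the 5 members with the letters TTCNNNGAA, the palindrome of the IFN gamma activated site (GAS), which 7.66% of all promoters held, and its last 3 bases were also part of an ISRE core. The letters TATAAA, found in 11.5% of all promoters, occurred on the opposite strand of the upstream IFIT3 window. A match is a description of these letters and not of a bound site.

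**Figure D1:**
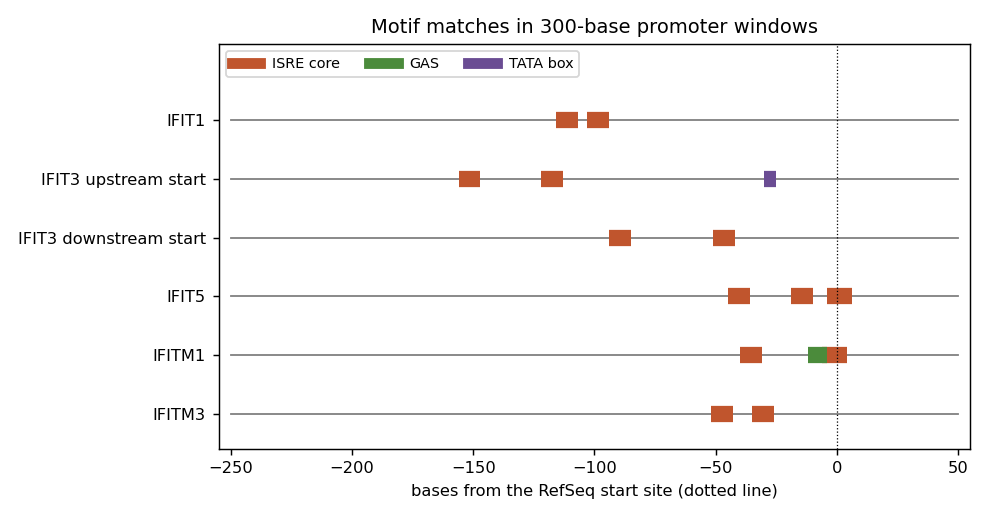
Motif matches in the promoter windows of 5 members, plotted by distance in bases from the RefSeq start site (dotted line). Blocks mark ISRE cores, the GAS palindrome and TATAAA on either strand; every window holds at least 2 ISRE cores, which lie between 156 bases before the start and 6 bases after it.

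The total count was between 55143808 and 160436234 per sample, with IRF1shRNA replicate 2 the least deeply sequenced, and 18851 genes passed the filter on low counts. Levels are in TMM-scaled CPM, in which each count is divided by the effective depth of its library, and on this scale 3 counts correspond to 0.0182 to 0.0540 CPM. Fold changes are log2 of IRF1shRNA over control from edgeR's quasi-likelihood test, and a gene is said to be lower or higher at a Benjamini-Hochberg adjusted p under 0.05. IRF1 itself stood at 45.3, 48.1 and 51.5 CPM in the control samples and at 13.8, 14.9 and 14.6 CPM in the IRF1shRNA samples, 29.9% of control (log2 fold change -1.74 ± 0.06 SE, adjusted p = 4.53e-13, edgeR). The groups did not overlap. The 4 mesenchymal markers of the line were present, and 3 were lower after silencing. VIM went from 918 to 625 CPM, FN1 from 761 to 601 CPM and ZEB1 from 87.2 to 79.4 CPM. CDH2, at 240 and 245 CPM, did not pass the test. Several other marker genes moved with the contrast, in which 26.4% of all genes tested were lower and 24.1% higher. Of the breast receptors, ESR1 did not exceed 0.144 CPM and PGR 0.325 CPM, and ERBB2 went from 50.8 to 36.4 CPM (adjusted p = 1.47e-06, edgeR). Of 4 epithelial markers 2 were lower, KRT18 from 6.34 to 2.92 CPM and KRT8 from 1.52 to 0.441 CPM, and CDH1 and EPCAM stayed below 1 CPM in every library without passing the test. Of 10 leukocyte markers 3 could be tested: CD14 was higher after silencing, moving from 1.09 to 2.22 CPM (adjusted p = 1.43e-05, edgeR), NCAM1, a gene that neural and some tumour cells also express, was lower, from 128 to 83.1 CPM, and PTPRC, at 0.526 and 0.481 CPM, did not pass the test. CD3E, MS4A1, LYZ, LILRA4 and CLEC4C were at or near 0. The leukocyte list summed to 127 to 131 CPM in control and to 83.6 to 88.2 CPM in IRF1shRNA samples, and the endothelial list did not exceed 0.253 CPM. The part of these markers in the results was not tested.

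All 7 members were lower in IRF1shRNA samples than in control samples, in a comparison in which 26.4% of all genes tested were lower and 24.1% were higher. The fall was deep for the 4 IFIT genes and IFITM1, to between 7.31% and 14.9% of control, and shallow for IFITM3 and IFITM2, at 57.5% and 66.6% of control. The 5 deep falls were over 2-fold, as were 4.43% of all genes tested. In 6 members the groups did not overlap, and 29.5% of all genes tested were lower without overlap. The median log2 fold change was -2.77 over the members and -0.0024 over all genes tested. Ranked from the deepest fall, IFITM1 stood at place 29 of 18851, IFIT3 at 33, IFIT1 at 35, IFIT2 at 75, IFIT5 at 77, IFITM3 at 1414 and IFITM2 at 2400. In bulk RNA a lower level in every cell and fewer cells that express a gene cannot be told apart.

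**Figure D2:**
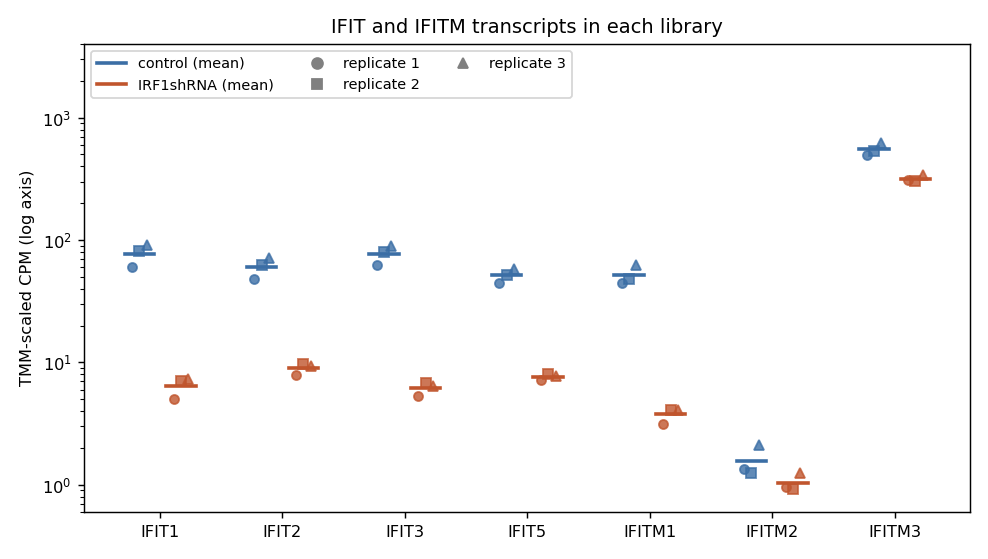
TMM-scaled CPM (log axis) of the 7 members in each of the 6 libraries, with symbols for replicates 1 to 3 and a bar at each group mean. The 4 IFIT genes and IFITM1 drop to between 7.31% and 14.9% of control, IFITM3 remains the most abundant, and only for IFITM2 do the groups overlap.

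IFIT1, the sensor of incompletely methylated caps, had control levels of 60.3, 81.8 and 90.4 CPM, in the order of the replicate numbers, and levels after silencing of 5.06, 7.03 and 7.31 CPM. Every IRF1shRNA sample lay far below every control sample. The mean fell from 77.5 ± 15.5 to 6.47 ± 1.22 CPM (SD, n = 3), which is 8.34% of control (log2 fold change -3.59 ± 0.14 SE, adjusted p = 1.07e-12, edgeR). IFIT3, the partner that stabilises IFIT1, was measured at 62.2, 79.3 and 90.2 CPM in control and at 5.36, 6.74 and 6.38 CPM in IRF1shRNA samples. Its levels ran close to those of IFIT1 in all libraries and the groups did not overlap. It was 12.5-fold lower (log2 fold change -3.66 ± 0.11 SE, adjusted p = 7.91e-14, edgeR).

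IFIT2, the pro-apoptotic member, was measured at 48.3, 62.0 and 71.6 CPM in control and at 7.84, 9.66 and 9.35 CPM in IRF1shRNA samples. In CPM, which is not corrected for transcript length, its control level was below that of IFIT1 and IFIT3 in each library. Its CPM after silencing was above theirs in each library. The fall was 6.77-fold (log2 fold change -2.77 ± 0.11 SE, adjusted p = 2.64e-12, edgeR). IFIT5, which binds uncapped RNA, was measured at 44.6, 51.9 and 57.5 CPM in control and at 7.24, 8.05 and 7.67 CPM in IRF1shRNA samples. The groups were again apart, with the smallest spread of the IFIT genes after silencing. IFIT5 was 6.71-fold lower (log2 fold change -2.75 ± 0.08 SE, adjusted p = 6.33e-14, edgeR).

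IFITM1, the plasma membrane member, showed the deepest fall of both families. It was measured at 44.9, 48.4 and 62.3 CPM in control and at 3.15, 4.11 and 4.12 CPM in IRF1shRNA samples. The groups were far apart, with control replicate 3 the highest. IFITM1 was 13.7-fold lower (log2 fold change -3.78 ± 0.12 SE, adjusted p = 1.12e-13, edgeR).

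IFITM3, the endosomal member that restricts influenza virus, was measured at 499, 532 and 619 CPM in control and at 311, 301 and 338 CPM in IRF1shRNA samples. All IRF1shRNA samples were below all control samples, yet the lowest of them still held more IFITM3 than any library held of another member. IFITM3 was 1.74-fold lower (log2 fold change -0.80 ± 0.07 SE, adjusted p = 1.82e-08, edgeR).

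IFITM2, its close copy, was scarce, at 1.34, 1.25 and 2.11 CPM in control and at 0.952, 0.919 and 1.26 CPM in IRF1shRNA samples, on 51 to 315 counts per library. IRF1shRNA replicate 3 lay above control replicate 2, so the groups overlapped, and control replicate 3 stood apart at the top. The log2 fold change was -0.57 ± 0.20 SE, with a 95% interval from -0.99 to -0.14 and an adjusted p of 0.0265 (edgeR). Without control replicate 3 it was -0.28 and no longer passed the test (adjusted p = 0.258, edgeR). It also missed the threshold without IRF1shRNA replicate 1 (-0.49, adjusted p = 0.104) and without IRF1shRNA replicate 2 (-0.50, adjusted p = 0.0839). Over the alternatives that tested IFITM2 by itself, its adjusted p ranged from 0.00183, with no filter on low counts, to 0.258 (edgeR and DESeq2).

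**Figure D3:**
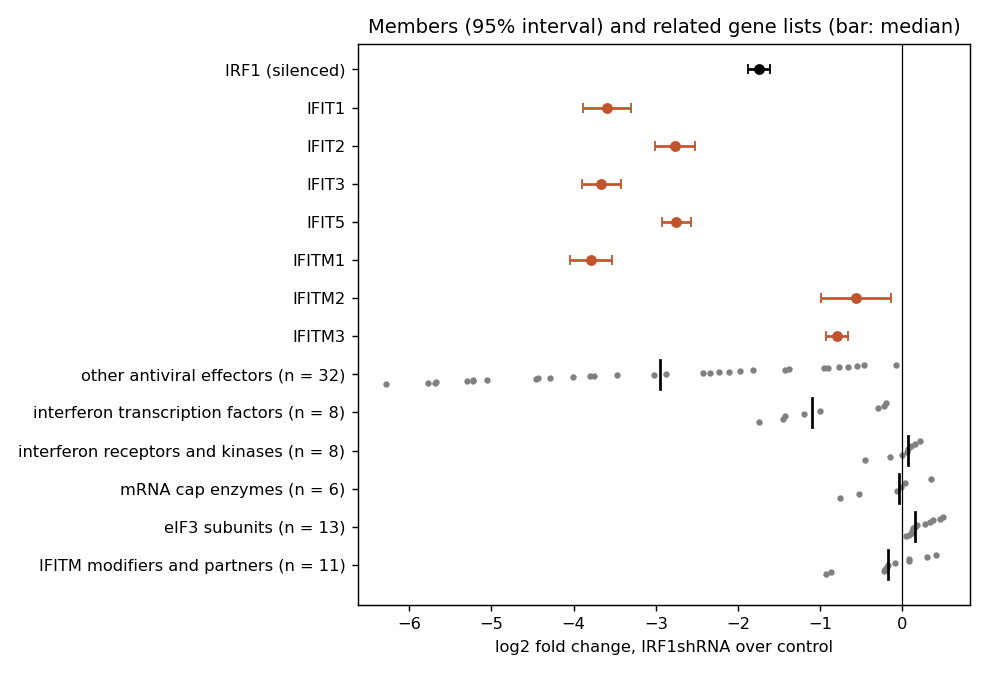
Log2 fold change, IRF1shRNA over control, of IRF1 and the 7 members (points with 95% interval) and of the tested genes of 6 related lists (grey points, black bar at the median). The 4 IFIT genes and IFITM1 lie between -3.78 and -2.75 among the other antiviral effectors (median -2.95), whereas IFITM2 and IFITM3 lie at -0.57 and -0.80.

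Control replicate 3 had the highest level of its group for all 7 members, and control replicate 1 had the lowest for 6. Among all genes tested, control replicate 3 was the highest of its group for 36.9% and control replicate 1 the lowest for 36.1%. IRF1 followed the same order, from 45.3 CPM in control replicate 1 to 51.5 CPM in control replicate 3. The highest control level of IFIT3 was 1.45 times the lowest, and that of IFITM3 was 1.24 times the lowest. The median of this ratio over the 13066 genes averaging 1 CPM or more was 1.09.

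The share of the transcriptome on each family was compared next. In control samples the 4 IFIT genes together took 0.0262% ± 0.0045 of all counts (SD, n = 3), and in IRF1shRNA samples 0.00297% ± 0.00032, which was 8.80-fold lower. The 3 IFITM genes took 0.0592% ± 0.0066 and 0.0327% ± 0.0022, a 1.81-fold fall. Both comparisons were without overlap, and each gave p = 0.1 in a two-sided exact permutation test, the smallest p that 3 samples against 3 allow (adjusted p = 0.1 over 2 tests).

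Ratios of counts within a library do not depend on the scaling between libraries. The log2 ratio of IFIT to IFITM counts was -1.34, -1.08 and -1.14 in control and -3.63, -3.28 and -3.48 in IRF1shRNA samples. The ratio was 4.84-fold lower after silencing, and no silenced library came near a control library. The log2 ratio of IFITM1 to the sum of IFITM2 and IFITM3 went from -3.42 ± 0.09 to -6.40 ± 0.22 (SD, n = 3), 7.88-fold lower. The log2 ratio of IFIT5 to the sum of IFIT1, IFIT2 and IFIT3 moved the other way, from -2.06 ± 0.11 to -1.49 ± 0.13, a difference of 0.57. All 3 ratios separated the groups without overlap, and each had p = 0.1 in the exact two-sided permutation test, again the smallest possible (adjusted p = 0.1 over 3 tests).

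**Figure D4:**
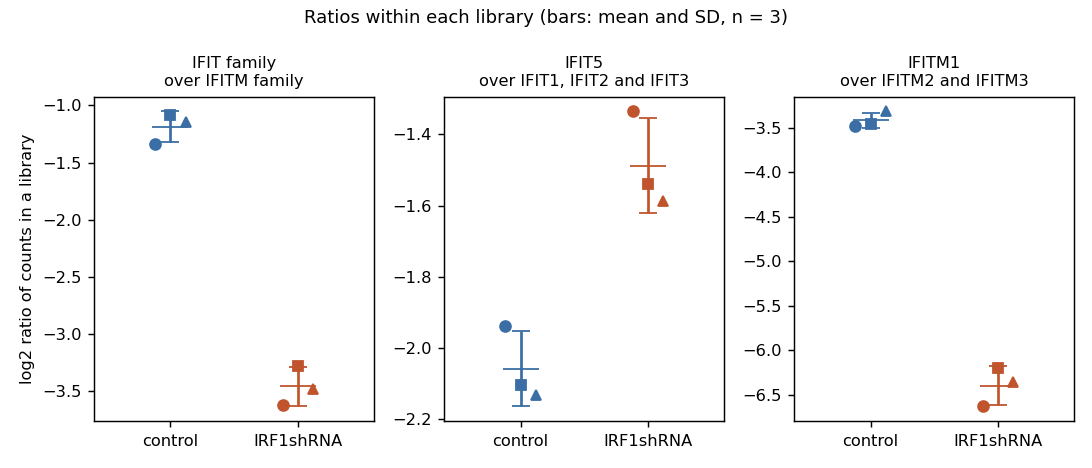
Log2 ratios of counts within each library for control and IRF1shRNA samples (symbols for replicates 1 to 3, bars at mean and SD, n = 3, each panel with its own axis). IFIT over IFITM and IFITM1 over IFITM2 and IFITM3 fall by 2.28 and 2.98, and IFIT5 over IFIT1, IFIT2 and IFIT3 is higher by 0.57.

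Within the IFIT family, the share of counts on IFIT1 went from 28.98% ± 0.90 to 21.99% ± 1.99 and that on IFIT3 from 28.9% ± 0.15 to 21.1% ± 0.32 (SD, n = 3). The share on IFIT2 went from 22.7% ± 0.37 to 30.6% ± 0.16, and that on IFIT5 from 19.4% ± 1.15 to 26.3% ± 1.81. By counts, IFIT1 and IFIT3 were thus the larger portions in control samples and the smaller portions in IRF1shRNA samples. These shares are not corrected for transcript length. Per kilobase of the longest transcript, IFIT3 had the highest mean of the IFIT genes in both groups. Within the IFITM family, IFITM1 went from 8.56% ± 0.49 to 1.18% ± 0.17 of the counts and IFITM3 from 91.2% ± 0.53 to 98.5% ± 0.18. None of these 6 shares overlapped between groups, and the share on IFITM2, at or below 0.367% in every library, did.

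Levels of different genes were compared as CPM per kilobase of the longest GENCODE transcript. On this scale the control order was IFITM3 at 680.4, IFITM1 at 60.7, IFIT3 at 30.9, IFIT1 at 16.8, IFIT2 at 16.4, IFIT5 at 12.8 and IFITM2 at 1.76 CPM per kilobase. The levels of IFIT1, IFIT2 and IFIT5 overlapped between these genes. In IRF1shRNA samples IFITM3 stood at 392 and IFITM1 at 4.44, with IFIT3 at 2.47, IFIT2 at 2.42, IFIT5 at 1.91, IFIT1 at 1.402 and IFITM2 at 1.17 CPM per kilobase. The place of IFIT1 depends on the transcript, since its longest form has 4613 bases and its principal form 1880 bases. With the latter, IFIT1 stood at 41.2 and 3.44 CPM per kilobase, above IFIT3 in both groups.

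The members were compared by their profiles over the 6 libraries, each profile being log2 CPM less its control mean. The root mean square distance was 0.0934 between IFIT1 and IFIT3 and 0.0797 between IFIT2 and IFIT5. IFITM1 was nearer to IFIT3, at 0.124, and to IFIT1, at 0.170, than to IFITM3, at 2.11. Over aligned bases, the coding sequences of IFIT2 and IFIT3 were the most alike of the 4 IFIT genes, at 73.0% identity. IFIT1 with IFIT5 had 67.2%, IFIT1 with IFIT3 65.3% and IFIT2 with IFIT5 61.7%. With gaps counted the first place changed, to IFIT1 with IFIT5 at 65.9%, and IFIT2 with IFIT3 had 65.7%. The coding sequences of IFITM1 and IFITM3 were 87.5% identical over aligned bases and those of IFITM2 and IFITM3 93.9%. With gaps counted these values were 67.1% and 93.2%.

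Each member was also compared with 13059 other genes that averaged 1 CPM or more. The nearest genes to IFIT1 were IFIH1, the cytosolic sensor MDA5, GBP4 and IFI44, and to IFIT3 they were GBP3, IFI44 and IFIH1. IFIT2 ran closest to OASL (distance 0.0774), PARP9 and PARP14, and IFIT5 to DDX60L and OASL. IFITM1 ran closest to IFI44 (distance 0.0604), HERC6 and SAMD9. The nearest genes to IFITM3 were PLTP, a phospholipid transfer protein, at 0.0110, ATCAY and PML, and to IFITM2 they were IL17RC, MGP and SLC12A8. A flat or shallow profile has many near neighbours, and these distances are descriptions over 6 libraries that share the contrast.

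The IFIT genes lie together on the plus strand of chromosome 10 in the order IFIT2, IFIT3, IFIT1 and IFIT5, from chr10:89283694-89309276 to chr10:89414586-89421001 in GENCODE release 29 (GRCh38). IFIT1B, the less studied relative between IFIT3 and IFIT1, was measured at 0.365, 0.620 and 0.563 CPM in control and at 0.0635, 0.0180 and 0.0365 CPM in IRF1shRNA samples, on 84 counts or fewer. The groups were apart, and the log2 fold change was -3.56 ± 0.43 SE (adjusted p = 2.10e-06, edgeR). Over aligned bases, the coding sequence of IFIT1B is 79.0% identical to that of IFIT1. Of the 50-base stretches of IFIT1B, 1.98% occur in IFIT1, and 1.02% of those of IFIT1 occur in another gene. In control samples IFIT1 had 7429 to 13475 counts and IFIT1B 45 to 84. Whether reads of IFIT1 were counted on IFIT1B was not tested.

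All 6 tested neighbours of the IFIT cluster were lower too, as were 26.4% of all genes tested. Their median log2 fold change was -0.99. STAMBPL1, a deubiquitinase, fell by 1.66 on the log2 scale (adjusted p = 2.49e-11, edgeR), FAS, the death receptor, by 1.15, ACTA2, smooth muscle actin, by 1.16, KIF20B, a mitotic kinesin, by 0.82, LIPA, lysosomal acid lipase, by 0.57 and PANK1, a pantothenate kinase, by 0.34. None of these 6 reached the fall of any IFIT gene. The other 2 neighbours did not pass the filter on low counts: CH25H, cholesterol 25-hydroxylase, had 10, 10 and 28 counts in control and 4, 0 and 0 in IRF1shRNA samples, and SLC16A12, a membrane transporter, had 4, 8 and 2 counts in control and 0 in each IRF1shRNA sample. With no filter edgeR called all 8 neighbours lower, and DESeq2 called 7 of the 8 lower. LIPA spans IFIT1, IFIT2 and IFIT3 on the opposite strand and shares 65 exon bases with IFIT2. An antisense entry on the strand of IFIT2, AL353751.1, shares 356 exon bases with it, and the strand setting used in counting is not given in the sources used here.

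The IFITM genes lie on chromosome 11, IFITM2 at chr11:307631-315272 and IFITM1 at chr11:313506-315272 on the plus strand and IFITM3 at chr11:319669-327537 on the minus strand. Of 12 tested neighbours 6 were lower and 4 higher, with a median log2 fold change of -0.34. Over all genes tested, 26.4% were lower and 24.1% higher. PGGHG and PKP3, a desmosomal plakophilin, had the deepest falls of these, by 1.25 and 1.23 on the log2 scale. PTDSS2 was higher by 0.32 and RIC8A, a G protein chaperone, by 0.22. The nearest tested genes on either side of the cluster, PGGHG and B4GALNT4, were both lower, the latter by 0.63. PSMD13, the next tested gene beyond PGGHG, was higher by 0.15. IFITM1 and IFITM2 share 351 exon bases on the same strand, which is 32.5% of the exon bases of IFITM1 and 22.7% of those of IFITM2. Stretches of 50 bases found in another gene make up 32.0% of IFITM1, 34.3% of IFITM2 and 35.2% of IFITM3, against at most 7.91% of an IFIT gene. Counts of the IFITM genes, and of the scarce IFITM2 above all, are therefore uncertain where reads fall in shared stretches. Summed to 1 gene, IFITM2 and IFITM3 gave a log2 fold change of -0.80, and all 3 IFITM genes gave -0.91. Of the IFITM counts, IFITM2 held 0.257% in control and 0.323% in IRF1shRNA samples, and IFITM3 held 91.2% and 98.5%. Both sums therefore largely follow IFITM3, and they cannot decide how IFITM2 changed.

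**Figure D5:**
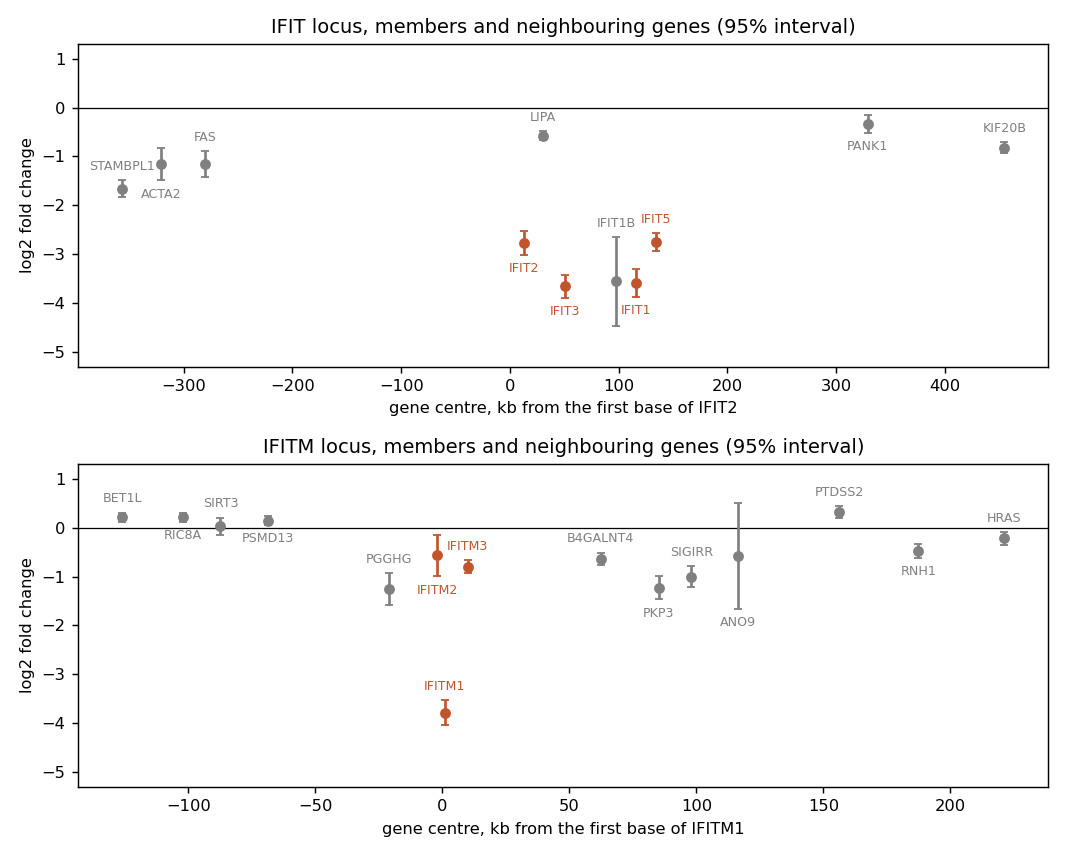
Log2 fold change (points with 95% interval, IRF1shRNA over control) of the members and of tested neighbouring genes, by the distance in kilobases of the gene centre from the first base of IFIT2 (upper panel) or IFITM1 (lower panel). The IFIT genes and IFIT1B lie at -2.75 or below and all 6 tested neighbours at -1.66 or above; in the lower panel IFITM1 at -3.78 lies apart from IFITM2, IFITM3 and the neighbours.

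The wider IFN system was described from lists, whose counts stand beside 26.4% lower and 24.1% higher over all genes tested. Of 32 other antiviral effectors, 31 were lower and none was higher, with a median log2 fold change of -2.95, close to that of the members. IFI27, a mitochondrial IFN-induced protein, had the deepest fall of the list, 6.28 on the log2 scale (adjusted p = 6.04e-16, edgeR), and SAMD9 and SAMD9L, which restrict poxviruses, had log2 fold changes of -3.80 and -4.28. A fall deeper than that of IFITM1 was seen in 13 of the effectors, and 5 effectors moved less than IFITM3. ISRE cores stood in the promoters of 16 of the 26 effectors with a window, 61.5%, and in 4.01% of the 12425 tested genes with a window. Of the 549 genes with a window that were lower by over 2-fold, members included, 12.9% held a core.

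Among the listed IFN transcription factors, 7 of 8 were lower, with a median of -1.10. Both figures include IRF1, the target of the hairpin. Besides IRF1, the ISGF3 subunit STAT2 fell by 1.01 on the log2 scale (adjusted p = 1.66e-10, edgeR), and no factor of the list fell as far as the IFIT genes. Among 8 tested receptors and Janus kinases the median was 0.06: IFNGR2 was lower by 0.45, and IFNGR1 and JAK1 were higher by 0.21 and 0.15. Of the 21 IFN ligand genes only IFNA1 and IFNE passed the filter on low counts, neither passed the test, and 9 had no count in any sample. IFNB1, singled out after its values were seen, did not pass the filter. It had 18, 10 and 8 counts in control and 4, 2 and 6 counts in IRF1shRNA samples, which is 37.1% of control in CPM, with no overlap between the groups and no test. Other scarce ligands separated the other way. IFNA1, at 5, 12 and 15 counts in control and 28, 7 and 22 in IRF1shRNA samples, lay above control in CPM without overlap. So did IFNA8, on 4 counts or fewer. In the feedback list 3 of 6 were lower and 2 higher. USP18, which removes ISG15 and blocks the type I receptor, fell by 3.28 on the log2 scale (adjusted p = 7.17e-12, edgeR), and the phosphatases PTPN11 and PTPN6 were higher by 0.34 and 1.89.

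The counts of the next lists stand beside 26.4% lower and 24.1% higher over all genes tested, and no list was tested as a set. Of 6 enzymes of the mRNA cap, whose methyl marks IFIT1 reads, 2 were lower and 1 higher, which is close to those shares. CMTR1 and CMTR2, which methylate the first and second transcribed nucleotides, fell by 0.76 (adjusted p = 1.19e-10, edgeR) and 0.52 on the log2 scale. RNMT, which methylates the cap guanine, was higher by 0.35. Of the 13 subunits of eIF3, the initiation factor that IFIT1 and IFIT2 bind, 10 were higher and none was lower, with a median of 0.16; EIF3J, EIF3L and EIF3H were higher by 0.49, 0.46 and 0.37. The number of higher subunits was between 7 and 12 under the other scalings, filters, thresholds and sets of samples tried. Of 11 genes that modify IFITM proteins or bind them, 6 were lower and 2 higher, with a median of -0.18. VAPA, which IFITM3 binds, fell by 0.87 (adjusted p = 2.49e-11, edgeR) and CD9, a tetraspanin, by 0.93 on the log2 scale, and OSBP, an oxysterol carrier that works with VAPA, was higher by 0.40. Under upper quartile scaling or by library size only, 4 of these were higher. Of the other CD225 domain genes 3 could be tested, and PRRT2, a presynaptic protein, fell by 0.57 on the log2 scale (adjusted p = 0.00327, edgeR). TMEM91 had a log2 fold change of 0.49 and did not pass the test (adjusted p = 0.0633, edgeR), though 1 gene of this list was higher under upper quartile scaling, by library size only, with no filter, with halved counts and without IRF1shRNA replicate 2.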

How the data were processed

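RNA-seq libraries (TruSeq Stranded mRNA) of BT-549 cells were analysed from raw counts per gene symbol, which the authors deposited without normalization. Their processing notes name STAR 2.7.9a, featureCounts, CASAVA 1.8.2, DESeq2 1.24.0 and GRCh38.p7, with no annotation release or strand setting. Between 72.1% and 75.2% of values from 2 to 11 counts were even, so read mates may have been counted separately, and halved counts were tried. Groups were taken from the sample titles.

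Differences were tested with edgeR 4.0.16 in R 4.3.3, by its quasi-likelihood F test on the 6 samples with group as the only factor, TMM scaling, filterByExpr (minimum count 10) and Benjamini-Hochberg adjustment over 18851 genes. Standard errors are from this fit. The depth of 55143808 to 160436234 counts puts 3 counts at 0.0182 to 0.0540 CPM, a floor that covers counting error only. Ratios and shares were tested by exact permutation over samples. The members and lists were chosen with earlier results of these data known. In each list the 3 genes with the smallest adjusted p were named, with the 3 nearest profiles to each member, and any neighbour gene. Other names are marked, and some genes that this rule covers are not reported here. Scripts were tested on simulated data.

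Lengths, overlaps and coding sequences came from GENCODE release 29, since RefSeq lengths were not used here, and promoters from RefSeq. Alternatives were DESeq2 1.42.0, other scalings, other filters, glmTreat with a fold of 2, an adjusted p threshold of 0.01, the replicate block, halved counts, leaving out each sample, and, chosen after seeing the data, thinning to the smallest library, summed IFITM genes and GENCODE lengths.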

Additional observations from a re-analysis of the deposited data

How the results depend on the processing

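IFIT1, IFIT2, IFIT3, IFIT5, IFITM1 and IFITM3 kept their direction and passed the test of any change in every fit run, and 5 members fell over 2-fold in each. IFITM2 lost its call when libraries were thinned to the smallest total, an alternative chosen after seeing the data (log2 fold change -0.47, adjusted p = 0.0894, edgeR), and in 3 of the fits that left out 1 sample, where its log2 fold change ranged from -0.75 to -0.28; these fits hold fewer counts or samples. The test against a 2-fold change called 5 members and the threshold of 0.01 called 6. The replicate numbers were also tried as a block: IFITM2 was then at -0.58 (adjusted p = 0.00613, edgeR), 7 members were lower, and no call on a member changed. The standard error of each member was smaller with the block, for IFIT1 0.055 against 0.137. Over all genes tested, same-numbered samples deviated from their group means with correlations of 0.0149, 0.0215 and -0.0122. Of 6 samples, 3 correlated best with their own number. Whether same-numbered samples were handled together is not stated, and pairing of the members was not tested further. With library totals as the only scaling, the median log2 fold change of all genes was 0.05. Depth limits IFITM2, IFIT1B, PTPN6 and the IFN ligands.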
